A study of Mus musculus with 7 samples.

Results

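DNA replication and licensing genes were followed in primary neurospheres grown from the hippocampus of adult mice with and without deletion of Med23, a subunit of the Mediator complex that links transcription factors to RNA polymerase II. The group holds 42 named genes of the 24346 gene symbols in the table, chosen by function: they load, activate or form the replication fork, supply its nucleotides, or pack the new DNA into chromatin. E2f1, a transcription factor that drives many of them, was counted with them. The 42 genes were chosen with earlier results of these data known. All 42 had a mean of at least 0.5 FPKM over the libraries and were among the 14151 genes tested, so none was lost to the filter on low values.

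RNA was measured by bulk sequencing in 7 libraries, each from the neurospheres of 1 mouse after 8 days with EGF and FGF. The 3 Med23 CKO libraries (mice KO_117, KO_214 and KO_218) came from Nestin-CreER:Med23 flox/flox mice, in which a tamoxifen-activated Cre under the Nestin promoter removes exons 5 to 7 of Med23. The 4 control libraries (mice WT_215, WT_116, WT_213 and WT_220) are labelled wild type, while the study's methods describe controls as littermates without Cre that carry Med23 flox/+ or Med23 flox/flox. The study describes groups of equal size for this sequencing, whereas the labels hold an additional control. Which control that is was not given in the sources used here, so all 4 were kept. Both groups were C57/BL6 mice labelled as 2 months old, and both received tamoxifen by gavage at 200 mg/kg daily for 5 days. The labels place the dosing at 2 months and the methods place it at 1 month for cultures, which was not resolved here. Cells that escaped recombination can stay in such a culture, and neurospheres can hold cells other than neural stem cells.

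Before a cell copies its DNA, the origin recognition complex, Cdc6 and Cdt1 load rings of Mcm2 to Mcm7 onto origins, a step called licensing, and geminin then blocks Cdt1 so that no origin is licensed again in the same cycle. At the start of S phase Cdc45 and GINS join the ring to form the active helicase, after which primase, polymerases, the sliding clamp and its loader build the new strands. Transcripts of most of these genes rise when E2F factors are released from the retinoblastoma family, and they are widely used as signs of cycling cells, for example of activated neural stem cells in the dentate gyrus.

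The E2F recognition word was searched because it is the sequence known to tie these genes together. Promoter windows reaching from 250 bases before to 50 bases after the transcription start were taken from RefSeq (GRCm38.p6) for 34 of the 42 genes. Gins1, Gins2, Gins4, Gmnn, Mcm4, Pole, Prim2 and Rfc2 were not in that table. The word was searched on both strands as TTTGGCGC, TTTCCCGC, TTTGCCGC and TTTCGCGC, which can overlap each other on opposite strands. It was found in 13 of the 34 genes, Cdc6, Cdt1, Gins3, Lig1, Mcm3, Mcm5, Mcm6, Mcm7, Orc1, Pola1, Pold1, Pole2 and Rfc3. Stretches of 7 of these promoters are shown, all upstream of the start, to let the words of widely and narrowly varying genes be compared. Capitals mark the E2F word on either strand, and each stretch is written 5′ to 3′ in the direction of the gene and ends at the base before the start, for Mcm7 before one of its starts.
Mcm6, chr1:128359706-128359825, reverse strand: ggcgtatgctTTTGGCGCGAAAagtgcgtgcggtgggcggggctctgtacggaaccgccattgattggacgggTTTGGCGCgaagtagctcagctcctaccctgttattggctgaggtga
Mcm5, chr8:75109339-75109508, forward strand: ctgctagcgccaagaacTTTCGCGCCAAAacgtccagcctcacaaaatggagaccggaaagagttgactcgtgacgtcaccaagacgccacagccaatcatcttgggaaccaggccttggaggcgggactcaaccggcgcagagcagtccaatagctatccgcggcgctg
Mcm7, chr5:138171884-138172063, reverse strand: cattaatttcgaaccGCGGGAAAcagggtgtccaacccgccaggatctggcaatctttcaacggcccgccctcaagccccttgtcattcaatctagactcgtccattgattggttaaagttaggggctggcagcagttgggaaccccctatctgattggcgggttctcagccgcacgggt
Orc1, chr4:108579414-108579453, forward strand: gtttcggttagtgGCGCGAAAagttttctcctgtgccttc
Cdc6, chr11:98908001-98908150, forward strand: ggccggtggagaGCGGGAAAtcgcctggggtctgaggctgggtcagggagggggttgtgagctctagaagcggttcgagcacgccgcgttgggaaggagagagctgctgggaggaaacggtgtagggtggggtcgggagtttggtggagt
Pola1, chrX:93632156-93632305, reverse strand: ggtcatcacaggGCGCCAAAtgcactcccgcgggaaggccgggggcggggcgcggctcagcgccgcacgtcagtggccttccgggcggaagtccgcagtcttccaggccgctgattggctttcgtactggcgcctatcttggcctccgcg
Gins3, chr8:95633499-95633558, forward strand: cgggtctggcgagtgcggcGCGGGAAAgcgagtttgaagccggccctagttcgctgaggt
The Mcm6 stretch holds 3 words, of which the first and second overlap on opposite strands in the first run of capitals, and the run in Mcm5 holds 2 overlapping words. Gins3, with a word 41 bases before its start, was one of the steadiest of the 42 genes between libraries, and Mcm5 one of the most variable.

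The word was present in 38.2% of the replication genes with a window and in 2.61% of all 27025 genes with a window (704 genes). Among 48 further replication genes, from a list described below that also holds cell cycle regulators, it was present in 35.4%, and among 26 mitosis genes in 3.85%. The CCAAT box (CCAAT, both strands) was in 61.8% of the replication genes, 73.1% of the mitosis genes and 41.1% of all genes. The cell cycle homology region, searched as TTTGAA and TTCGAA on both strands and known from genes of late cell cycle phases, was in 17.6% of the replication genes, 73.1% of the mitosis genes and 21.7% of all genes. Replication genes with the E2F word had a median log2 range across libraries of 2.48 (n = 13), and those without it 2.17 (n = 21). A match is a description of the letters and not of binding, and absence says only that these letters are not in the window.

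**Figure D1:**
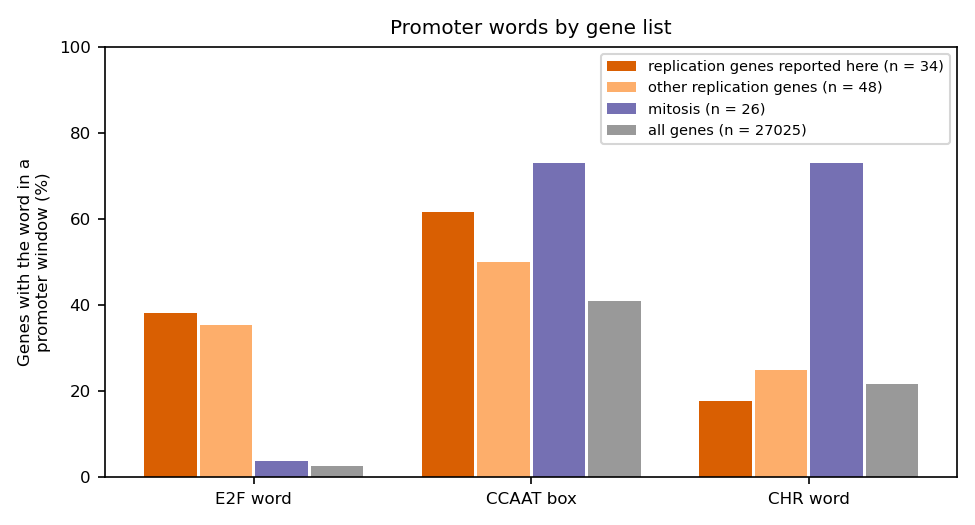
Share of genes (%) that hold each promoter word in a window from 250 bases before to 50 after the start, for the replication genes reported here (n = 34), further replication genes (n = 48), mitosis genes (n = 26) and all genes with a window (n = 27025). The E2F word is in 38.2% of the replication genes and 3.85% of the mitosis genes, while the CHR word is in 17.6% and 73.1%.

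Values below are FPKM, fragments scaled to transcript length and to the mapped fragments of the library, listed in the order WT_215, WT_116, WT_213, WT_220 for control and KO_117, KO_214, KO_218 for Med23 CKO. Differences are Med23 CKO minus control in mean log2(FPKM + 1), a scale that understates the change of low genes. The targeted gene was read first: Med23 was at 11.4, 10.3, 12.9 and 10.1 FPKM in the controls and 9.97, 9.27 and 8.12 FPKM in the CKO mice. All Med23 CKO values lay below all control values, with a difference of -0.26 (exact permutation p = 0.0571), although these values cover the whole gene and not the floxed exons alone. Libraries held 16841 to 18113 genes above 0, the 10 highest genes took 5.12% to 12.2% of the summed FPKM, with the highest share in KO_214, and pairs of libraries correlated at 0.907 to 0.99 over all genes in the table. Depth is unknown, because low values did not lie on a grid from which reads could be recovered.

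No replication gene differed between the genotypes by more than the spread between mice. At an unadjusted p under 0.05 from limma, 0 of the 42 were higher and 0 were lower in Med23 CKO, against 0.502% and 0.996% of all genes tested. After Benjamini-Hochberg adjustment over all genes, 0 of the 42 were called, and the share of all genes called was 0%. In 0 of the 42 did all Med23 CKO values lie above all control values (0.784% of all genes) and in 0 did all lie below (1.53%). The mean of log2(FPKM + 1) was lower in Med23 CKO for 37 of the 42 and higher for Rfc1, Pola1, Pole2, Rpa1 and E2f1, none of which passed a test. Over all genes tested it was lower for 7955 of 14151. The 42 genes varied together, as described below, so their directions are not independent. The count of 37 depends on the scale, since mean FPKM was lower for 28 and higher for 14. The further genes on the higher side were Cdc6, Gins1, Pcna, Pole, Prim1, Fen1, Rrm1, Tyms and Tk1. Lower and higher means below are those of log2(FPKM + 1) unless FPKM is named. The median difference was -0.19, within a range of -0.60 (Rrm2) to 0.15 (E2f1), and the median over all genes tested was -0.03. The smallest unadjusted p of any member was 0.408, for Rpa3, from the limma fit.

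The spread between mice of the same genotype was wide. The median residual SD of the 42 genes was 0.89 on the log2 scale, against 0.38 over all genes tested, and the median range from the lowest to the highest library was 2.17 against 1.01. KO_117 had the highest value of all libraries in 40 of the 42 genes, and KO_214 the lowest in 38 of the 42, although both are Med23 CKO. Over all genes tested, KO_117 was highest in 23.6% and KO_214 lowest in 18.7%. In 37 of the 42 genes the Med23 CKO values reached both above and below the whole control range, which was so in 33.2% of all genes tested, and the third Med23 CKO mouse, KO_218, lay between the other Med23 CKO mice in 38 of the 42. Without KO_214 the median difference was 0.26 and 0 of the 42 genes had a lower mean log2 value in Med23 CKO. Without KO_117 the median was -0.80 and all 42 had a lower mean log2 value, so the direction of the group average rested on which of these mice was included. Leaving out 1 control gave medians of -0.44 (WT_116), -0.32 (WT_213), -0.06 (WT_215) and -0.01 (WT_220).

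**Figure D2:**
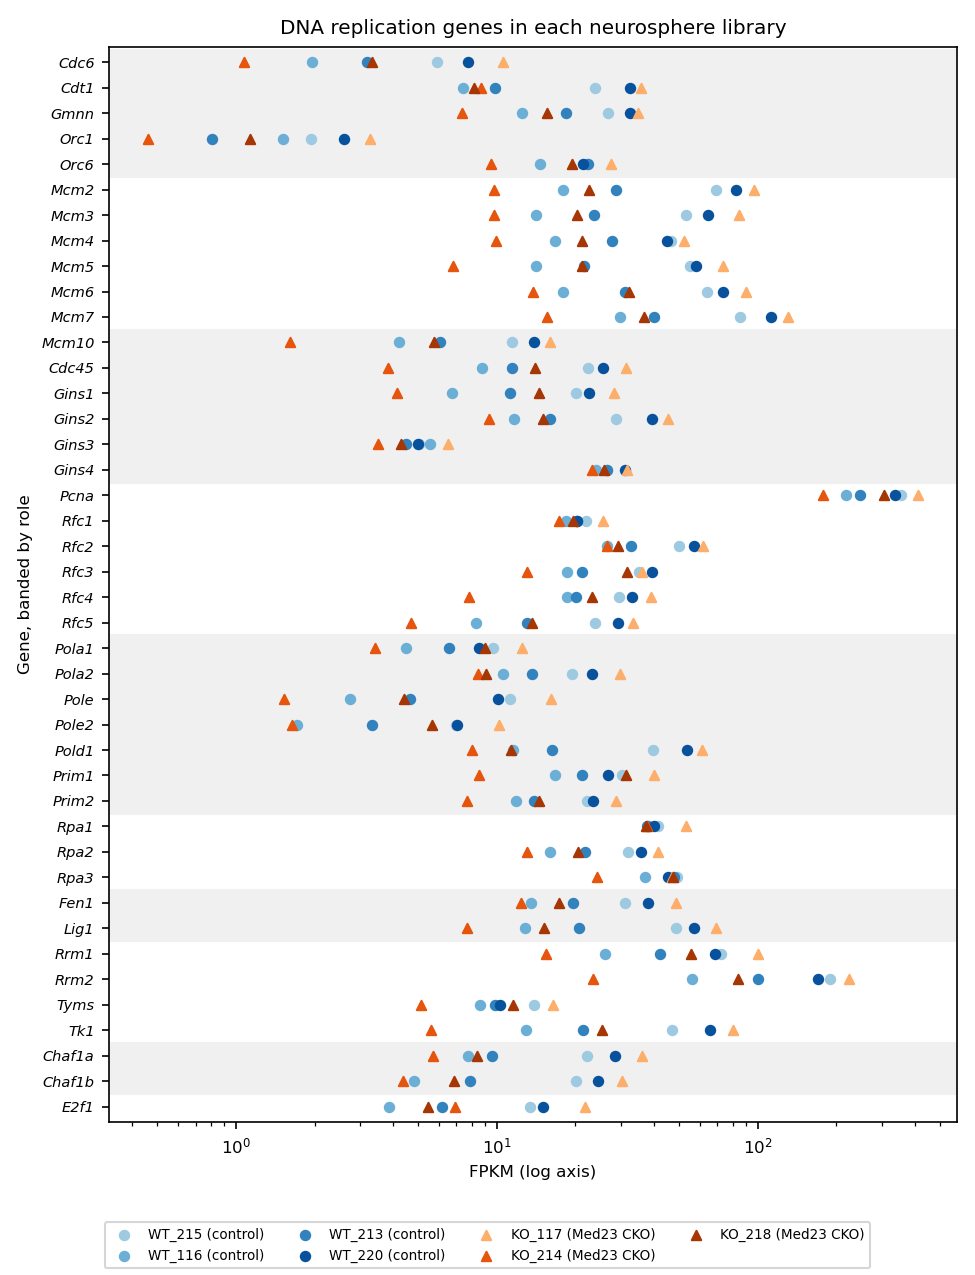
FPKM (log axis) of the 42 replication genes in each of the 7 libraries, with circles for control, triangles for Med23 CKO and shaded bands separating the 10 roles. KO_117 is the rightmost point in 40 of the 42 genes and KO_214 the leftmost in 38, with most control values between them.

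All 5 genes of origin binding and helicase loading (Orc1, Orc6, Cdc6, Cdt1 and Gmnn) had a lower mean log2 value in Med23 CKO, with a median difference of -0.16, and 0 passed the test (an unadjusted p under 0.05 from limma, here and for the groups that follow). Orc1, the largest subunit of the origin recognition complex, was the lowest of the 42 genes, at 1.95, 1.51, 0.810 and 2.59 FPKM among controls and 3.27, 0.459 and 1.13 FPKM among Med23 CKO libraries. An antisense transcript, Gm12743, covers 10.8% of its exon bases, and the counting is not stated to use strand. Its difference was -0.15 with a 95% interval of -1.10 to 0.80. Cdc6, the ATPase that joins the origin recognition complex to load the helicase, was at 5.88, 1.96, 3.17 and 7.73 FPKM (control) and 10.6, 1.07 and 3.31 FPKM (Med23 CKO). The Med23 CKO values ran from below the lowest to above the highest control value, and the means were 4.69 ± 2.61 (SD, n = 4) and 4.98 ± 4.96 FPKM (SD, n = 3), higher in Med23 CKO on this scale and lower as mean log2 values.

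Cdt1, which brings the Mcm ring to the origin, was measured at 23.7, 7.38, 9.85 and 32.3 FPKM in the controls and 35.6, 8.71 and 8.18 FPKM in the CKO mice. Here KO_214 was not the lowest library, since WT_116 and KO_218 were below it. Geminin (Gmnn), the inhibitor of Cdt1, was at 26.6, 12.5, 18.4 and 32.4 FPKM among controls and 34.7, 7.33 and 15.5 FPKM among Med23 CKO libraries, with KO_214 lowest. The ratio of Cdt1 to Gmnn was 0.893, 0.591, 0.536 and 0.998 in control and 1.03, 1.19 and 0.527 in Med23 CKO. KO_214 therefore had the highest ratio of all 7 libraries, the groups overlapped, and the log2 ratio differed by 0.24 (exact permutation p = 0.543). Orc6, the smallest subunit of the origin recognition complex, was narrower, from 14.6 to 22.4 FPKM in control and from 9.52 to 27.4 FPKM in Med23 CKO, with a difference of -0.19. Vps35 on the opposite strand, at a mean of 88.8 FPKM, covers 6.93% of its exon bases.

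The 6 subunits of the Mcm helicase varied most as a group. All 6 had a lower mean in Med23 CKO on the log2 and the FPKM scale, with a median difference of -0.46 and a median residual SD of 1.20, and 0 of the 6 passed the test. Mcm2, widely stained as a mark of cycling neural progenitors, was at 69.0, 17.95, 28.5 and 82.1 FPKM (control) and 96.9, 9.72 and 22.6 FPKM (Med23 CKO). KO_117 was the highest and KO_214 the lowest of the 7 libraries, 9.97-fold apart, and the difference between genotypes was -0.54 (SE 0.82, 95% interval -2.45 to 1.36). Mcm3 was at 53.3, 14.1, 23.5 and 64.6 FPKM in the controls and 84.6, 9.79 and 20.3 FPKM in the CKO mice. Mcm4 was at 46.6, 16.7, 27.6 and 44.9 FPKM among controls and 52.3, 9.94 and 21.1 FPKM among Med23 CKO libraries. In Mcm4, part of the catalytic core with Mcm6 and Mcm7, the highest and lowest libraries were 5.27-fold apart, the smallest span of the ring.

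Mcm5, the partner of Mcm2 at the gate of the ring, was at 54.8, 14.1, 21.6 and 57.7 FPKM among controls and 73.6, 6.76 and 21.3 FPKM among Med23 CKO libraries. Its span of 10.9-fold was the widest of the ring, and the values of KO_218 and WT_213 were nearly equal. Mcm6 was at 63.8, 17.8, 30.8 and 73.4 FPKM (control) and 90.2, 13.8 and 32.1 FPKM (Med23 CKO), with the smallest difference of the ring, -0.22 (95% interval -1.85 to 1.41). Mcm7 was at 85.8, 29.6, 40.0 and 113 FPKM in the controls and 131, 15.5 and 36.6 FPKM in the CKO mice, and its difference was -0.45. Groups overlapped in all 6 genes.

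Levels per length could be ordered within the ring, although its subunits assemble in equal numbers. Mcm7 was the highest, with a mean of 64.4 FPKM over the 7 libraries, and exceeded Mcm2 (46.7 FPKM) in 7 of 7 libraries. On the opposite strand, Ap4m1 covers 7.25% of the exon bases of Mcm7, and Cops6, at a mean of 139 FPKM, covers 1.45%. Mcm2 and Mcm6 (46.0 FPKM) were not separable, since Mcm2 was higher in 4 of 7 libraries. Mcm6 exceeded Mcm3 (38.6 FPKM) in 7 of 7, whereas Mcm3, Mcm5 (35.7 FPKM) and Mcm4 (31.3 FPKM) exchanged order, with the first of each neighbouring pair higher in 4 of 7. The ratio of Mcm2 to Mcm3 was the narrowest of the 44 ratios between partner genes that were computed, at 1.30, 1.27, 1.21 and 1.27 in control and 1.15, 0.993 and 1.12 in Med23 CKO. Every Med23 CKO ratio was below every control ratio, the only such separation among the 44, with a log2 difference of -0.22. Its exact permutation p of 0.0286 is the smallest that 4 against 3 libraries can give, and it was 1 after adjustment over the 44 ratios.

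Genes that turn the loaded ring into an active helicase had a median difference of -0.17, with 6 of 6 lower in mean log2 value (5 of 6 in mean FPKM, Gins1 being higher) and 0 past the test. Cdc45, which joins the ring at origin firing, was at 22.3, 8.80, 11.5 and 25.5 FPKM among controls and 31.4, 3.82 and 13.9 FPKM among Med23 CKO libraries. Mcm10, needed for the helicase to start moving, was at 11.5, 4.21, 6.04 and 13.9 FPKM (control) and 16.0, 1.61 and 5.73 FPKM (Med23 CKO). Both followed the common order, with KO_117 highest, then WT_220 and WT_215, and KO_214 lowest. Gins1, a GINS subunit, was at 20.1, 6.75, 11.2 and 22.5 FPKM in the controls and 28.2, 4.13 and 14.5 FPKM in the CKO mice. Gins2 was at 28.7, 11.6, 16.0 and 39.2 FPKM among controls and 45.3, 9.36 and 15.0 FPKM among Med23 CKO libraries, but 67.3% of its exon bases are also covered by Gse1 on the opposite strand, so its reads are uncertain.

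The GINS subunits did not move by equal amounts between mice, although they form a complex of 1 copy each. Gins3 stayed between 3.503 and 6.51 FPKM and Gins4 between 23.1 and 31.6 FPKM over all 7 libraries, spans of 1.86-fold and 1.37-fold. The spans were 6.84-fold in Gins1 and 4.84-fold in Gins2. The ratio of Gins1 to Gins4 consequently ranged from 0.178 in KO_214 to 0.893 in KO_117, with 0.760, 0.281, 0.424 and 0.730 in control. Differences between genotypes were -0.16 in Gins1, -0.19 in Gins2, -0.09 in Gins3 and -0.01 in Gins4, the last with an interval of -0.42 to 0.40.

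Pcna, the sliding clamp that holds polymerases on DNA, was the most abundant of the 42 genes, at 353, 217, 247 and 335 FPKM (control) and 413, 178 and 306 FPKM (Med23 CKO). KO_117 was highest and KO_214 lowest, yet only 2.32-fold apart, and the difference between genotypes was 0.00 on the log2 scale (95% interval -0.75 to 0.75). The pseudogenes Pcna-ps1 and Pcna-ps2 were not in the table and could share reads with it. Rfc1, the large subunit of the clamp loader, was at 22.04, 18.4, 20.4 and 20.2 FPKM in the controls and 25.5, 17.3 and 19.6 FPKM in the CKO mice. Its 1.47-fold span was among the smallest of the 42, and its interval of -0.40 to 0.45 was among the narrowest. Rfc3, a small subunit of the loader, was at 34.9, 18.6, 21.2 and 39.4 FPKM among controls and 36.0, 13.1 and 31.4 FPKM among Med23 CKO libraries, and WT_220 rather than KO_117 was its highest library.

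The other small subunits differed by -0.12 (Rfc2), -0.32 (Rfc4) and -0.32 (Rfc5). Exons on the opposite strand cover 15.1% of Rfc2 (by Lat2), 12.7% of Rfc4 (by Eif4a2) and 10.7% of Rfc5 (by Wsb2). Rfc5 ranged from 4.70 FPKM in KO_214 to 33.1 FPKM in KO_117, so the ratio of Rfc1 to Rfc5 went from 0.692 in WT_220 to 3.68 in KO_214, the widest of the 44 ratios. Within the clamp loader, 4 of 5 subunits had a lower mean log2 value in Med23 CKO, and 0 passed the test.

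Among polymerases and primase, 5 of 7 genes had a lower mean log2 value in Med23 CKO and 2 a higher one (3 and 4 in mean FPKM), with a median difference of -0.19 and 0 past the test. Pola1, the catalytic subunit of the polymerase that starts each strand, was at 9.63, 4.47, 6.57 and 8.52 FPKM (control) and 12.5, 3.41 and 8.98 FPKM (Med23 CKO). Prim1, the catalytic subunit of primase, was at 30.2, 16.6, 21.2 and 26.6 FPKM in the controls and 39.9, 8.55 and 31.1 FPKM in the CKO mice. In both genes KO_218 stood among the 3 highest libraries, unlike in most of the 42. Pole, the catalytic subunit of the leading strand polymerase, was at 11.2, 2.73, 4.63 and 10.1 FPKM among controls and 16.1, 1.52 and 4.40 FPKM among Med23 CKO libraries. Pole2, its accessory subunit, was at 6.96, 1.71, 3.32 and 7.01 FPKM (control) and 10.2, 1.64 and 5.62 FPKM (Med23 CKO), with a difference of 0.15 (95% interval -1.20 to 1.50).

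The ratio of Pole to Pole2 was 1.61, 1.59, 1.39 and 1.44 in control and 1.59, 0.927 and 0.782 in Med23 CKO. KO_214 and KO_218 were below all controls and KO_117 was among them, so the groups overlapped (exact permutation p = 0.114, 1 after adjustment over the 44 ratios). Pold1, the catalytic subunit of the main lagging strand polymerase, ran from 11.6 to 53.6 FPKM in control and from 8.02 to 61.1 FPKM in Med23 CKO, with a difference of -0.47. Pola2 and Prim2, the partner subunits of Pola1 and Prim1, differed by -0.25 and -0.19.

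Replication protein A coats the exposed single strand, and its subunits were the steadiest group, with a median log2 range of 0.98. Rpa1, the large subunit, was at 41.4, 37.8, 37.6 and 40.2 FPKM in the controls and 52.9, 37.7 and 37.3 FPKM in the CKO mice. All libraries except KO_117 lay between 37.3 and 41.4 FPKM, including KO_214, in which most of the 42 genes were lowest. Rpa3, the smallest subunit, was at 48.8, 37.1, 47.6 and 45.2 FPKM among controls and 46.7, 24.3 and 47.3 FPKM among Med23 CKO libraries, with KO_214 lowest and WT_116 next. Rpa2 spanned 13.1 to 41.5 FPKM, and differences were 0.10 in Rpa1, -0.16 in Rpa2 and -0.23 in Rpa3.

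For lagging strand completion, Fen1, the nuclease that trims flaps between fragments, was at 31.0, 13.5, 19.5 and 38.1 FPKM (control) and 48.5, 12.4 and 17.3 FPKM (Med23 CKO). Antisense gene Gm10143 covers 78.8% of the exon bases of Fen1, so these reads are uncertain too. Tmem258, also on the opposite strand and at a mean of 233 FPKM, covers 5.37%. Lig1, the ligase that joins the fragments, was at 48.4, 12.8, 20.6 and 57.0 FPKM in the controls and 69.2, 7.70 and 15.1 FPKM in the CKO mice. The 2 genes differed between genotypes by -0.10 (95% interval -1.31 to 1.10) and -0.51 (95% interval -2.34 to 1.33).

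Genes of nucleotide supply held the largest span and the largest difference. Rrm2, the subunit of ribonucleotide reductase that is made in S phase, was at 189, 55.9, 100.3 and 169.8 FPKM among controls and 224, 23.3 and 83.8 FPKM among Med23 CKO libraries. Its difference of -0.60 was the most negative of the 42 but had an SE of 0.75 and an interval of -2.36 to 1.16. Rrm1, the catalytic subunit that persists through the cycle, was at 72.3, 25.9, 42.1 and 68.4 FPKM (control) and 99.9, 15.5 and 55.4 FPKM (Med23 CKO), with a difference of -0.12. The ratio of Rrm1 to Rrm2 was 0.383, 0.463, 0.420 and 0.403 in control and 0.447, 0.665 and 0.662 in Med23 CKO. KO_214 and KO_218 were above all controls and KO_117 was within their range, with a log2 difference of 0.48 (exact permutation p = 0.0571, 1 after adjustment over the 44 ratios).

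Thymidylate for DNA comes from synthesis by Tyms and salvage by Tk1. Tyms was at 13.9, 8.62, 9.81 and 10.3 FPKM in the controls and 16.4, 5.11 and 11.6 FPKM in the CKO mice, and its pseudogene Tyms-ps is listed separately in the table. Tk1 was at 46.9, 13.0, 21.3 and 65.7 FPKM among controls and 80.4, 5.59 and 25.2 FPKM among Med23 CKO libraries, a 14.4-fold span that was the widest of the 42. Their differences were -0.06 and -0.39, the latter with an interval of -2.45 to 1.67.

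**Figure D3:**
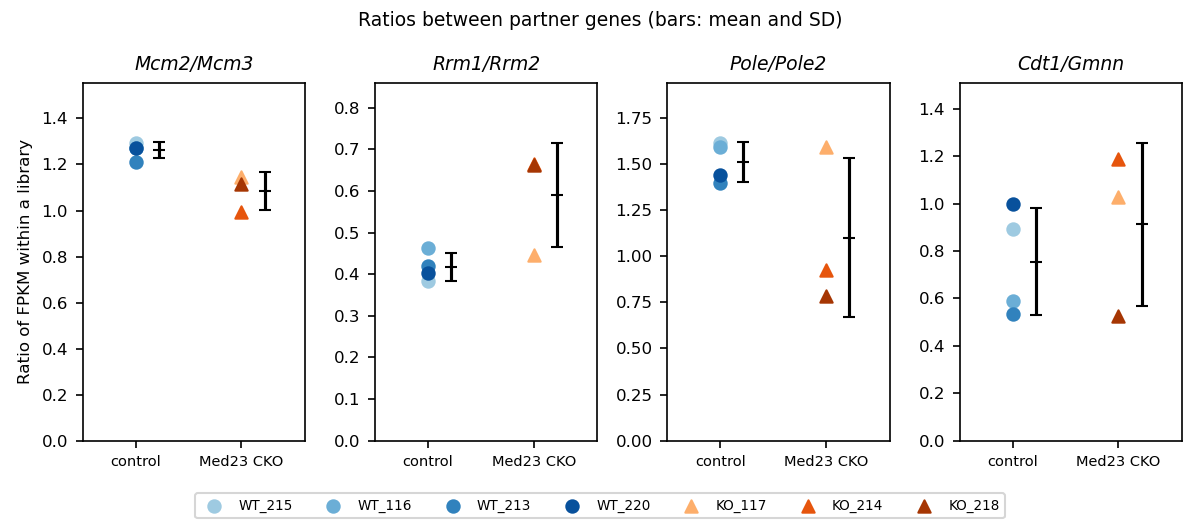
Ratios of FPKM between partner genes within each library, with circles for control (n = 4), triangles for Med23 CKO (n = 3), and bars for mean and SD; each axis starts at 0. Mcm2/Mcm3 is below all controls in every Med23 CKO library, while Rrm1/Rrm2, Pole/Pole2 and Cdt1/Gmnn overlap between groups.

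Chromatin assembly factor 1 places histones on the new DNA. Chaf1a, its large subunit, was at 22.2, 7.73, 9.55 and 28.4 FPKM (control) and 36.1, 5.70 and 8.41 FPKM (Med23 CKO), and Ubxn6 on the opposite strand covers 52.5% of its exon bases. Chaf1b, the middle subunit, was at 20.2, 4.83, 7.87 and 24.4 FPKM in the controls and 30.2, 4.38 and 6.83 FPKM in the CKO mice. Both followed the common order of libraries, with differences of -0.25 and -0.24. Chaf1a exceeded Chaf1b in 7 of 7 libraries, and their ratio stayed between 1.10 and 1.60.

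E2f1 itself was at 13.3, 3.85, 6.17 and 15.0 FPKM among controls and 21.8, 6.92 and 5.45 FPKM among Med23 CKO libraries. Its lowest library was WT_116, and KO_214 stood above KO_218, as in Cdt1 and Rpa1. The difference of 0.15 had a 95% interval of -1.19 to 1.49.

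**Figure D4:**
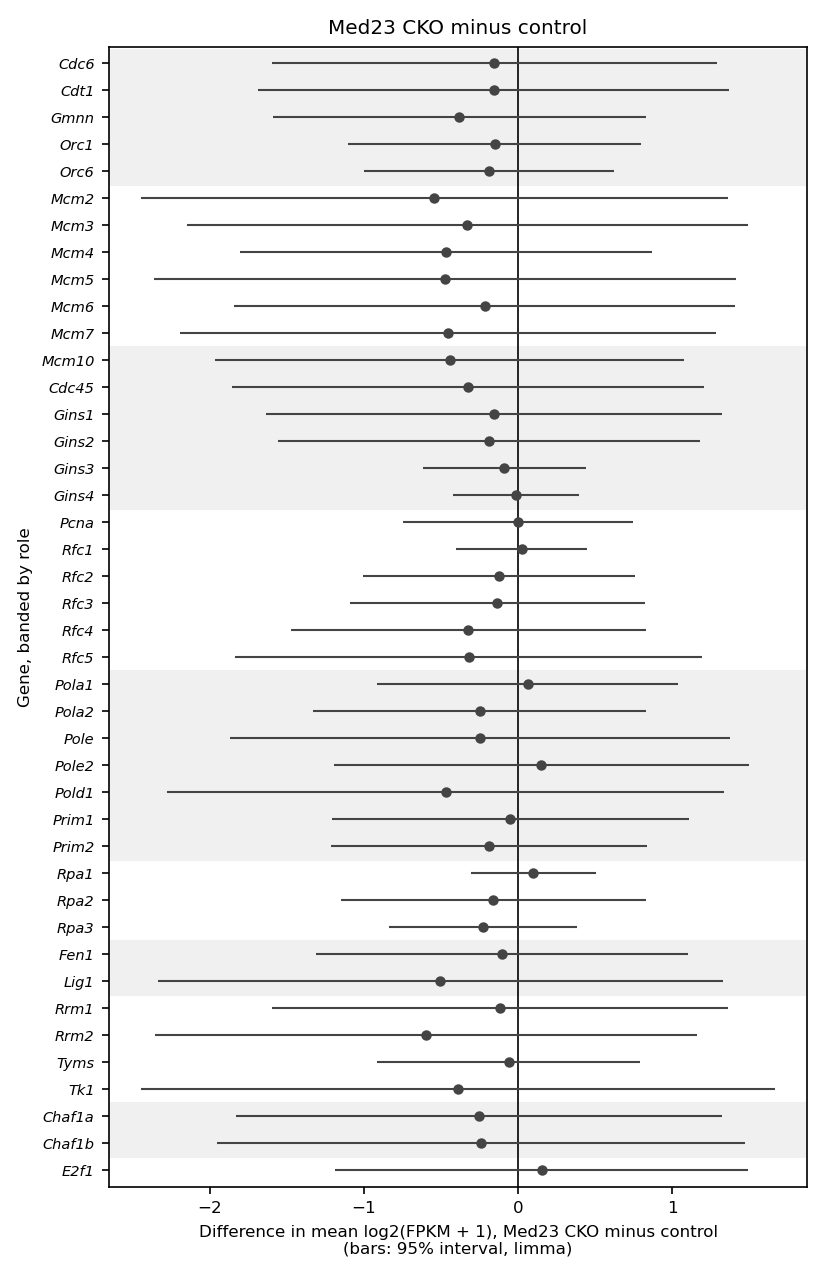
Difference in mean log2(FPKM + 1) between Med23 CKO (n = 3) and control (n = 4) for the 42 replication genes, with points for the limma estimate, bars for the 95% interval and shaded bands separating the roles. All intervals include 0, and they are narrowest in Gins4, Rfc1 and Rpa1 and widest in Tk1.

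The 42 genes varied together from mouse to mouse. Over the 861 pairs of genes, the Pearson correlation across the 7 libraries had a median of 0.920, with a range of 0.310 to 0.999, and 505 pairs were above 0.9. With group means removed the median was 0.933, and without KO_117 and KO_214 it was 0.886, with a lowest value of -0.726. In 34 of the 42 genes the 3 highest libraries were KO_117, WT_220 and WT_215, and the 8 exceptions were Orc6, Gins3, Gins4, Rfc1, Pola1, Prim1, Rpa3 and Tyms. These values share their libraries and the scaling of each library, and are given as a description.

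The genes differed in how far they followed this common level. Fitted on the mean of the other 41 genes, a gene that moves in step has a slope of 1. Slopes were 0.17 in Rpa1, 0.20 in Gins4 and in Rfc1, 0.22 in Gins3 and 0.35 in Rpa3, and at the other end 1.61 in Mcm5, 1.63 in Mcm2 and 1.74 in Tk1. The highest library exceeded the lowest by less than 2-fold in 4 of the 42 genes and by more than 5-fold in 22, with a median of 5.46-fold.

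The mean log2(FPKM + 1) over the 42 genes was 4.86, 3.71, 4.13 and 5.00 in control and 5.29, 3.21 and 4.12 in Med23 CKO. The 42 genes held between 0.109% (KO_214) and 0.436% (KO_117) of the summed FPKM of a library. In bulk RNA, fewer cycling cells and less of these transcripts per cycling cell cannot be told apart.

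This level was set beside 3 other lists in the same libraries. The lists were chosen with earlier results of these data known, so the correlations and their p-values are given as a description. Strong correlation with this level was common. Among 9880 genes outside the group with a mean of at least 5 FPKM, 13.5% had an r above 0.9 and 9.28% an r below -0.9. The mean of 30 mitosis genes, such as Ube2c, a ubiquitin-conjugating enzyme of mitotic exit, was 5.27, 3.55, 4.37 and 5.38 in control and 5.72, 2.52 and 4.43 in Med23 CKO. It followed the replication level with r = 0.984 (exact permutation p = 0.000397, adjusted 0.00119) and rho = 0.964 (exact permutation p = 0.00278, adjusted 0.00833) over 7 libraries. Without KO_214 and KO_117, the libraries farthest from the median of the mitosis level, r was 0.984. Of the 30 mitosis genes, 29 had a lower mean log2 value in Med23 CKO (21 in mean FPKM), 0 passed the test, 29 were lowest in KO_214 and 28 highest in KO_117, and the median difference was -0.44. Ube2c was at 183, 42.5, 81.3 and 219.6 FPKM (control) and 295, 14.4 and 81.0 FPKM (Med23 CKO).

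Markers of microglia and macrophages ran the other way. Of their 20 genes, 18 were highest in KO_214, against 25.4% of all genes tested. The mean of the 20 genes was 2.64, 3.40, 3.81 and 1.91 in control and 1.96, 5.65 and 3.45 in Med23 CKO. It correlated with the replication level at r = -0.931 (exact permutation p = 0.00317, adjusted 0.00476) and rho = -0.821 (exact permutation p = 0.0341, adjusted 0.0341). Without KO_214 and WT_220, the farthest from the median, r was -0.907. Their summed level was 112 to 661 FPKM in control and 129 to 4290.0 FPKM in Med23 CKO, with 0 of 20 genes at 0 in any library. Lyz2, a lysozyme of myeloid cells, was at 132, 177, 181 and 33.0 FPKM in the controls and 48.3, 2227 and 167 FPKM in the CKO mice. Defining microglial genes were low throughout, with Cx3cr1 between 0.0866 and 0.782 FPKM and P2ry12 between 0.434 and 1.597 FPKM, while Tmem119 reached 4.04 FPKM in KO_214. Of 10 endothelial genes 9 were highest in KO_214, with a summed level of 11.3 to 81.9 FPKM in control and 7.42 to 137 FPKM in Med23 CKO. The part of these cells in the replication levels was not tested.

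Neural stem cell markers correlated with the replication level at r = 0.875 (exact permutation p = 0.0183, adjusted 0.0183) and rho = 0.893 (exact permutation p = 0.0123, adjusted 0.0185), and at r = 0.865 without WT_116 and KO_117. Vim and Fabp7, genes of radial glia-like cells, were abundant in all 7 libraries, at 708 to 1694 FPKM and 203 to 1557 FPKM. Sox2 ranged from 69.4 to 194 FPKM and Nes from 61.1 to 240.5 FPKM, so these markers of the labelled cell type were present. Hes5 was low, from 0.278 FPKM in WT_116 to 6.72 FPKM in WT_215. Not all members followed the list mean: Gfap (321 FPKM) and Prom1 were highest in KO_214, while 4 genes were lowest there. Of the 14 stem cell genes, 0 passed the test. The 10 neuronal genes summed to 137 to 162 FPKM in control and 88.7 to 199.6 FPKM in Med23 CKO, and the 8 oligodendrocyte lineage genes to 2590.2 to 4641 FPKM and 2235 to 2783 FPKM, with 0 genes of either list past the test.

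**Figure D5:**
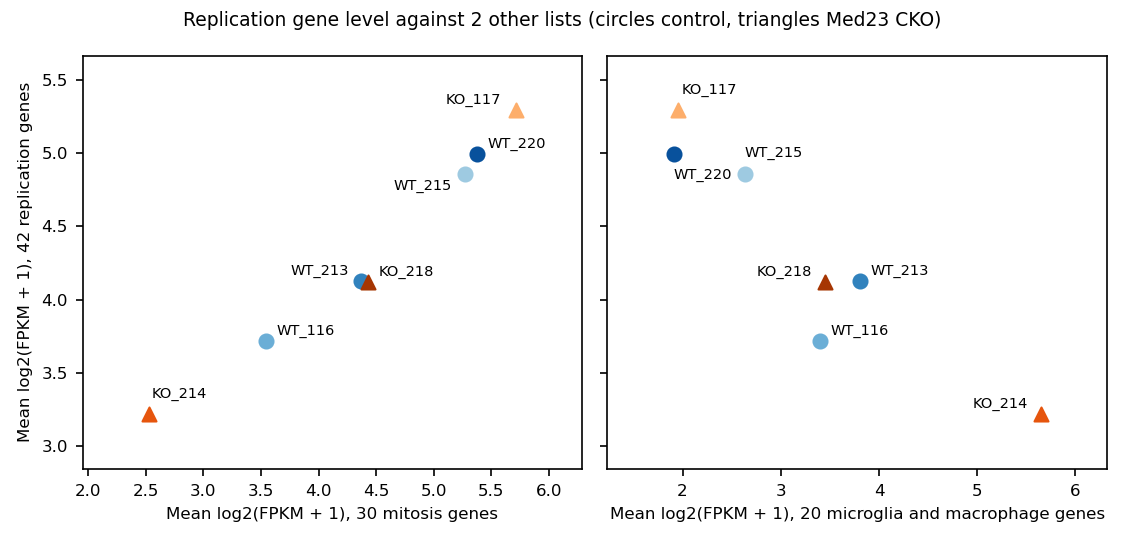
Mean log2(FPKM + 1) of the 42 replication genes against that of 30 mitosis genes (left) and of 20 microglia and macrophage genes (right), with 1 point per library, circles for control and triangles for Med23 CKO. The points rise from KO_214 (2.52, 3.21) to KO_117 (5.72, 5.29) on the left and fall toward KO_214 (5.65, 3.21) on the right.

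The genotype difference was refitted with the mitosis level of each library as a covariate. Pole2 was then higher in Med23 CKO, with a difference of 0.45 (SE 0.17, adjusted p = 1 from limma). It was the only member to pass an unadjusted p of 0.05 in that fit, so that 1 of 42 was higher and 0 lower against 1.26% and 2.74% of all genes. The log2 difference in that fit was above 0 in 28 of the 42, with a median of 0.06, and 0 genes of any kind passed the adjusted threshold in this limma fit.

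A list of 59 further replication genes, which also holds cell cycle regulators such as E2f2, Ccne1 and Rb1, showed a similar order of mice in most of its genes. Of these, 48 had a lower and 11 a higher mean log2 value in Med23 CKO (36 and 23 in mean FPKM), 0 passed the test, and the median difference was -0.15. KO_117 was highest in 43 of the 59 and KO_214 lowest in 42. The smallest limma p values among those lower in mean log2 value belonged to Tfdp1, the partner of E2F factors, at 109, 51.1, 76.1 and 114 FPKM among controls and 115, 32.7 and 64.6 FPKM among Med23 CKO libraries (exact permutation p = 0.486), Rnaseh2a, a subunit that removes RNA from DNA, and Dck, a kinase of nucleotide salvage. Rnaseh2a differed by -0.34 (exact permutation p = 0.486) and Dck by -0.41 (exact permutation p = 0.600).

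On the higher side stood Orc3 and Orc2, further subunits of the origin recognition complex, and Rb1, the retinoblastoma protein that restrains E2F. Orc3 was at 9.74, 10.2, 10.5 and 7.06 FPKM (control) and 11.1, 9.66 and 12.7 FPKM (Med23 CKO), a difference of 0.23 (exact permutation p = 0.257). Orc2 was at 17.8, 19.2, 16.8 and 15.4 FPKM in the controls and 20.4, 14.9 and 22.2 FPKM in the CKO mice, so that neither gene had the wide span of the Mcm genes. Rb1 was at 16.5, 25.1, 21.4 and 10.7 FPKM among controls and 13.9, 22.7 and 25.4 FPKM among Med23 CKO libraries, with WT_220 and KO_117 lowest, the libraries in which the replication genes were highest.

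Regulators that act before S phase, the D cyclins with their kinases and inhibitors, were read from a list of 13, of which 11 had a lower and 2 a higher mean log2 value in Med23 CKO (10 and 3 in mean FPKM). Cdkn2b, an inhibitor of the cyclin D kinases, passed an unadjusted p of 0.05 in limma, at 26.6, 20.1, 28.05 and 40.0 FPKM (control) and 7.95, 25.9 and 10.3 FPKM (Med23 CKO). Its difference was -1.05 (exact permutation p = 0.0571, adjusted limma p = 1), and KO_214 overlapped the controls. At that unadjusted threshold 1 of the 13 was lower and 0 were higher, against 0.996% and 0.502% of all genes tested. Ccnd1, the most abundant of the list, was at 798, 564, 569 and 828 FPKM in the controls and 603, 371 and 429.9 FPKM in the CKO mice, a difference of -0.57 (exact permutation p = 0.171). The largest difference of the list went the other way, 1.16 in Cdkn1c (exact permutation p = 0.229). Cdkn1c was at 3.78, 3.33, 2.86 and 5.11 FPKM (control) and 23.9, 13.6 and 2.17 FPKM (Med23 CKO), so KO_218 lay below all controls.

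The genes outside the group whose levels were most like the mean of the 42, by Pearson correlation over the 7 libraries among 9880 genes with a mean of at least 5 FPKM, were Cdca2, Bub1b, Uhrf1, Pif1 and Nup85. Their correlations were 0.997 to 0.999, and Bub1b is also in the mitosis list and Uhrf1 in the list of further replication genes. Cdca2, which binds a phosphatase on chromatin at the end of mitosis, was at 13.4, 2.97, 5.15 and 15.6 FPKM in control mice and 20.6, 1.21 and 4.73 FPKM in CKO mice. Bub1b, a kinase of the spindle checkpoint, was at 26.0, 5.35, 10.5 and 31.5 FPKM in control mice and 42.9, 2.89 and 10.8 FPKM in CKO mice. Uhrf1, which brings the maintenance methyltransferase to new DNA, was at 58.9, 11.97, 24.9 and 70.4 FPKM among controls and 103, 6.58 and 20.5 FPKM among Med23 CKO libraries. Pif1, a DNA helicase, spanned 24.5-fold and Nup85, a nuclear pore protein, 2.99-fold, so likeness of order did not mean likeness of size. Likeness was common in these libraries: 13.5% of the 9880 genes had an r above 0.9 and 9.28% an r below -0.9.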

How the data were processed

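Total RNA of primary neurospheres was sequenced in 7 libraries, 1 mouse each. The authors removed adapters with cutadapt, aligned the reads with TopHat to mm10 and obtained FPKM for each gene from Cuffdiff. The annotation, strand setting and Cuffdiff options are not given in the sources used here. The deposited table holds FPKM per gene and library, together with group means and columns of the authors' own comparison (fold change, test statistic, p-value and q-value), which were not used. No column of another sample was found.

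FPKM was analysed as log2(FPKM + 1) for the 14151 of 24346 genes with a mean of at least 0.5 FPKM. Genotypes were compared by limma 3.58.1 with trend in R 4.3.3 (two-sided, no covariate, Benjamini-Hochberg over the genes tested). Intervals are 95% intervals of that fit. Single values and ratios were tested by exact two-sided permutation over the 35 assignments of 4 and 3 libraries, where the smallest p is 0.0286, and correlations by exact permutation of 7 libraries. The p-values for genotype judge a difference against the spread between these mice.

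The members, roles and lists were chosen with earlier results of these data known, and so were the genes described in full: those named by role, the 3 smallest p values on each side of the further list, the 5 genes most alike and examples of high mean FPKM. The lists of microglial, endothelial and other markers served the same purpose. Exon overlaps came from GENCODE M21 and promoter windows from RefSeq, both on GRCm38. The limma script was tested on simulated data. Alternatives were another pseudocount, filters, scaling, limma settings, covariates and each library left out.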

Additional observations from a re-analysis of the deposited data

Results flagged for a closer look

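Among the 42 replication genes, 1 had a control library that stood apart from the other controls. Orc6 was at 14.58 FPKM in WT_116, and the gap to the nearest control was 0.881 of the range of the 4 controls, above the 95% limit of the Dixon test for 4 samples. Chance flags about 5% of such groups, which is more than the 1 of 42 found here.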

How the results depend on the processing

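Under every setting that used all 7 libraries (limma, or the exact permutation test per gene), 0 members and 0 genes passed the adjusted threshold. Leaving out 1 library gave 0 to 1 genes called, 1 without KO_214 and 1 without KO_218, and 0 members. At an unadjusted p under 0.05, 71 genes were higher and 141 lower. The counts were 99 and 119 with each library centred on its median, 102 and 123 after quantile normalization, 161 and 417 with the microglia level as a covariate, 179 and 388 with the mitosis level as a covariate, and 140 higher without the filter. With array weights, whose estimation did not reach its convergence tolerance, they were 193 and 887. Leaving out 1 library gave 45 to 354 higher and 70 to 410 lower genes, with 354 and 410 without KO_117, 139 and 70 without KO_218, 45 and 79 without WT_215, and 76 lower without WT_220. Members past that threshold numbered 0 in each direction, except 1 higher (Pole2) with the mitosis covariate and 1 lower (Pola2, with a difference of -0.80) without KO_117, so that over the libraries left out 0 were higher and 0 to 1 lower.

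The median member difference of -0.19 lay between -0.29 (array weights) and -0.16 (centred libraries) under the scalings, filters, pseudocount and limma settings, and was 0.06 with the mitosis and 0.19 with the microglia covariate. Over the libraries left out it ran from -0.80 (without KO_117) to 0.26 (without KO_214), and was -0.44 without WT_116, -0.32 without WT_213, -0.06 without WT_215 and -0.01 without WT_220. Members with a lower mean log2 value numbered 37, and 28 in mean FPKM, a scale added after seeing the data, but 14 and 2 with those covariates, 22 without WT_220, and 0 (without KO_214) to 42 (without KO_117) over the libraries left out. With the covariates, differences are those left at equal mitosis or microglia levels, and the cause of the other changes was not tested. No paired analysis was possible because the groups share no mouse number. With 3 mice against 4 and depth unknown, true differences anywhere within the printed intervals were not excluded, and no detection limit was computed.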
